A study of Drosophila melanogaster with 3 samples.

Results

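The odorant-binding protein genes were the protein-coding genes of the main chromosome arms whose symbol is Obp followed by a number and letters, and lush, which is the same kind of gene under an older name. By this rule 52 of 13945 protein-coding genes were members. Regions of acj6-GFP signal were assigned to a member when their summit lay in its gene body or within 2 kb of it. The regions come from ChIP-seq peak lists, an assay which recovers the DNA bound by a chosen protein. The group comprised 3 biological replicates of whole animals, males and females pooled, as white prepupae, which have just formed the puparium, from a transgenic Drosophila melanogaster line with a stably expressed copy of acj6 carrying GFP at its C-terminus. The antibody was against GFP, and the labels name neither the promoter of the transgene nor whether the replicates came from separate cultures. There was no second group, each replicate list was made with the same control file, and which cells of the animal gave a region cannot be told from whole-body chromatin.

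Odorant-binding proteins are small secreted proteins, held in shape by disulphide bonds between conserved cysteines. Support cells of the olfactory and taste hairs release many of them into the fluid around the dendrites, where they bind odorants and tastants before these reach a receptor, and others are made in fat body, glia, gut or male reproductive tissue. acj6 is a POU-homeodomain transcription factor known for its part in the choice of odorant receptors and in the wiring of olfactory neurons, which are neighbours of the support cells in the same sensilla. Its homeodomain belongs to a class that often contacts the letters TAAT.

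Reproducible regions lay beside members, and none had its summit inside a member's gene body. The authors' list of regions that repeated between replicates by the irreproducible discovery rate procedure (IDR list, 8248 regions) placed 12 regions at 11 members. Within 1 kb of an annotated start site there were 3, 1 each at Obp83g, Obp83cd and Obp99b. The sequence around these summits and around the summit upstream of Obp99c is shown because these are the 4 members whose own start was the closest one to an IDR region in their window. The region nearest to each start was taken. Each run is 121 bases of the Release 6 (dm6) plus strand, read 5′ to 3′ and centred on the summit, at chr3R:6112492-6112612 (Obp83g), chr3R:6107982-6108102 (Obp83cd), chr3R:29717078-29717198 (Obp99b) and chr3R:29690604-29690724 (Obp99c). Capitals mark the homeodomain core TAAT or its complement ATTA and, at Obp99b, the letters GGCGCCATC, which were picked out after this sequence had been read.
Obp83g: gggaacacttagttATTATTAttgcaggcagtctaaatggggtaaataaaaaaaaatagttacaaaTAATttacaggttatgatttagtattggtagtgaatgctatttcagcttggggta
Obp83cd: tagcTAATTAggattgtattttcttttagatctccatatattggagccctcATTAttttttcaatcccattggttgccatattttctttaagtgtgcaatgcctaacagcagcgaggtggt
Obp99b: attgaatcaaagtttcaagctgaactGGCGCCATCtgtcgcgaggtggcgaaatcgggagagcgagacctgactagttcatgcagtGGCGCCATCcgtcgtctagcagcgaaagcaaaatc
Obp99c: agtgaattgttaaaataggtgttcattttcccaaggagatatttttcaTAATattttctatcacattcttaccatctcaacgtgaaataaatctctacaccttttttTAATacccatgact
The Obp83g run held 3 cores, the Obp83cd run 3 and the Obp99c run 2, while the Obp99b run held none and had 52.9% G and C. The letters GGCGCCATC stood 2 times in the Obp99b run.

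The summits in the runs above are described with their ranks by the authors' signal value, where 1 is the strongest region of a list. Signal is the authors' enrichment value of each region, is on no common scale across lists, and serves here for ranks within each. Each replicate list and the list from pooled alignments held 30000 regions and includes background by design. A region was counted as among the strongest of a replicate when its rank was 8248 or better, the length of the IDR list.

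Narrowly ahead of Obp99b in the IDR list, though not in replicate 1, Obp83g had the strongest region that stood directly before a member's start. Its summit at 3R:6112552 lay 250 bp upstream of the gene (FBgn0046875, 3R:6111671 to 6112302, minus strand), outside any protein-coding gene, and ranked 1841 in the IDR list with a signal of 328.9. The closest replicate regions ranked 2180 in replicate 1, 1977 in replicate 2 and 1829 in replicate 3, with signals of 91.1, 107.0 and 122.5. All 3 replicates thus placed it in the stronger part of their lists, and replicate 3 divided it between 2 overlapping regions. A further IDR region 1470 bp upstream of Obp83g was weaker (signal 122.4, rank 6406). It ranked 4938 in replicate 1 and 6048 in replicate 2, and in replicate 3, at 11560, it fell outside the strongest regions.

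Obp83g closes a group of 3 members on 3R with Obp83cd and Obp83ef, whose proteins are of the double-length type with 2 odorant-binding domains in tandem. Obp83cd had an IDR summit 92 bp before its start, with a signal of 136.7 and a rank of 5716. It ranked 7795 in replicate 1, 4365 in replicate 2 and 9160 in replicate 3, so that replicate 3 left it outside its strongest regions. The second IDR summit of Obp83cd, 1184 bp upstream, ranked 5385 in the IDR list and 5632, 6808 and 6367 in replicates 1, 2 and 3, inside the strongest regions of each. Obp83ef (FBgn0046876) lies between its neighbours and counted as a member with a region only through the windows of theirs, since the summits before Obp83g and Obp83cd also fall within 2 kb of it. The group thus held 4 of the 12 IDR regions, all of them on the outer sides of the outer genes.

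**Figure D1:**
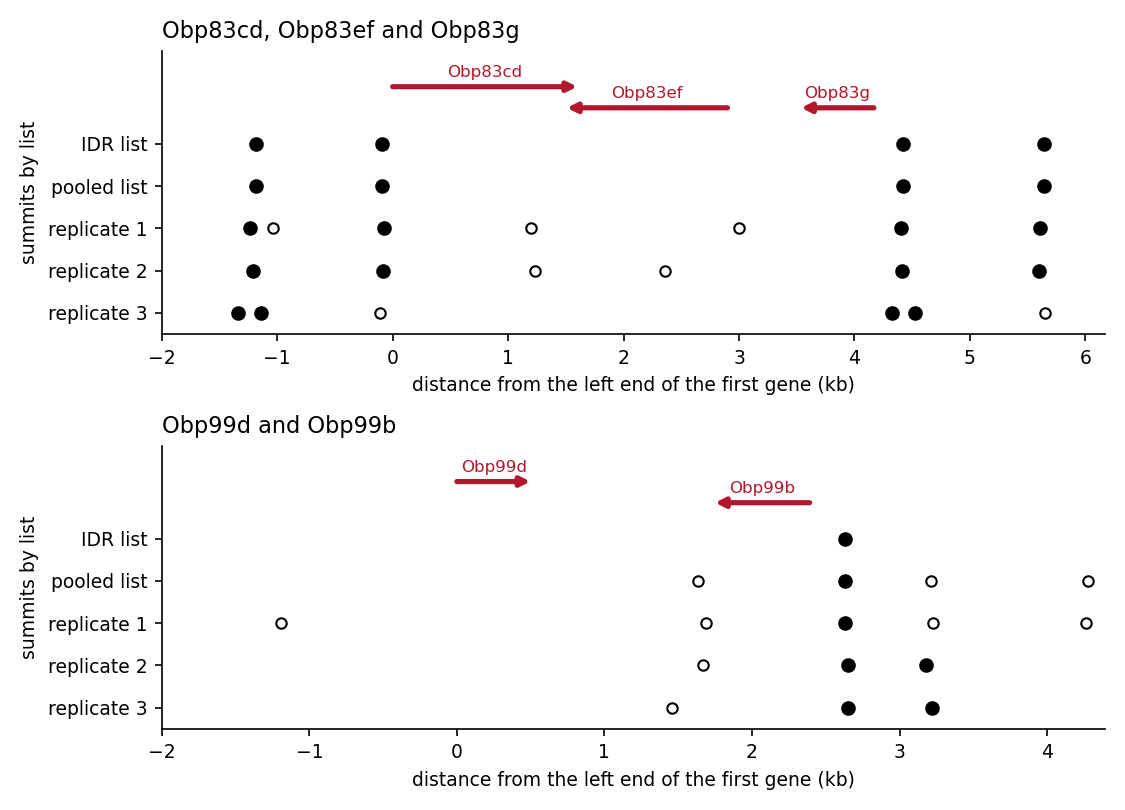
Summits of regions at the Obp83cd, Obp83ef and Obp83g genes (top) and at Obp99d and Obp99b (bottom), by list, against distance in kb from the left end of the first gene, which is to scale. Red arrows are gene bodies pointing in the direction of transcription, filled circles are regions ranked 8248 or better in their list and open circles weaker ones; IDR summits flank the genes, and none lies in a gene body.

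Obp99b, also named tsx and known for male-biased expression in the fat body around the head, had a narrow region 242 bp upstream of its start. The IDR summit at 3R:29717138 had a signal of 326.9 and ranked 1866. It ranked 1482 in replicate 1, 2199 in replicate 2 and 2201 in replicate 3, with signals of 115.6, 99.2 and 107.6. The region was 178 bp wide, against a commonest width of 420 bp in the IDR list. The next pooled region upstream, 824 bp from the start, ranked 8397 in the pooled list and is not in the IDR list, although it ranked 6804 in replicate 2 and 7375 in replicate 3, with 9254 in replicate 1.

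The other genes of the 99 group differed in what lay beside them. Obp99c (FBgn0039682) had an IDR summit 1353 bp before its start with a signal of 144.7, which ranked 7346 in replicate 1, 4552 in replicate 2 and 5008 in replicate 3. Obp99d had no IDR region, the nearest being the Obp99b summit at 2134 bp, just past the 2 kb limit, and its pooled region at rank 10403 lay 113 bp beyond the 3′ end of Obp99b. That region ranked 9309, 9780 and 19530 in replicates 1, 2 and 3, outside the strongest regions of each. Obp99a had 1 pooled region 300 bp upstream at rank 18251, with a counterpart in replicate 2 (rank 13803) and none in replicates 1 and 3.

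The strongest region at any member lay behind a gene and not before it. Obp84a (FBgn0011282, 3R:7250725 to 7251957, minus strand), found early as an antennal relative of moth pheromone-binding proteins, had an IDR summit 1100 bp past its 3′ end at 3R:7249625. Its signal was 675.3, with rank 508 in the IDR list and ranks of 438, 556 and 536 in replicates 1, 2 and 3. All 3 replicates put it near the top of their lists. The summit was also in an untranslated exon of CG1227, 113 bp from the start of that gene, and thus nearer to it than to Obp84a.

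The same held for the other regions behind members: each of 6 was closer to the start of a gene outside the family. This share of the IDR regions, 50%, was 25% with a flank of 1 kb and 66.7% with 5 kb. At Obp46a on 2R, 1 IDR summit (signal 270.8, rank 2457) lay 132 bp before the start of RNaseZ, a nuclease of tRNA processing, and another (signal 101.5, rank 7705) 15 bp inside CG12909. The first ranked 3083, 1687 and 3331 in replicates 1, 2 and 3. Replicate 1 had a single region over both summits. At Obp73a on 3L, the longest member with a gene body of 10582 bp, the summit (signal 123.9, rank 6320) lay 1923 bp past the gene and 574 bp before a start of Ogdh, a subunit of the oxoglutarate dehydrogenase of the citric acid cycle. The closest replicate regions ranked 8140, 6388 and 8864 in replicates 1, 2 and 3, so that replicate 3 had its closest one outside the strongest regions. Stronger regions that also overlapped it ranked 5042 in replicate 1 and 6721 in replicate 3.

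The remaining 2 regions were the weakest of the set beside the second at Obp46a. The summit 930 bp past Obp56f (signal 102.9, rank 7606) lay 830 bp from the start of CG8517 and ranked 8584 in replicate 1, 6382 in replicate 2 and 8234 in replicate 3. It also put Obp56e on the list, at 1974 bp from the gene body, but no replicate list had a summit in the window of Obp56e. Obp28a, another abundant antennal member, had its summit 1639 bp past the 3′ end in an intron of Ziz, a guanine nucleotide exchange factor, with a signal of 98.6 and a rank of 7914. It ranked 9503, 8325 and 6915 in replicates 1, 2 and 3, so that replicate 3 alone had it among the strongest.

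**Figure D2:**
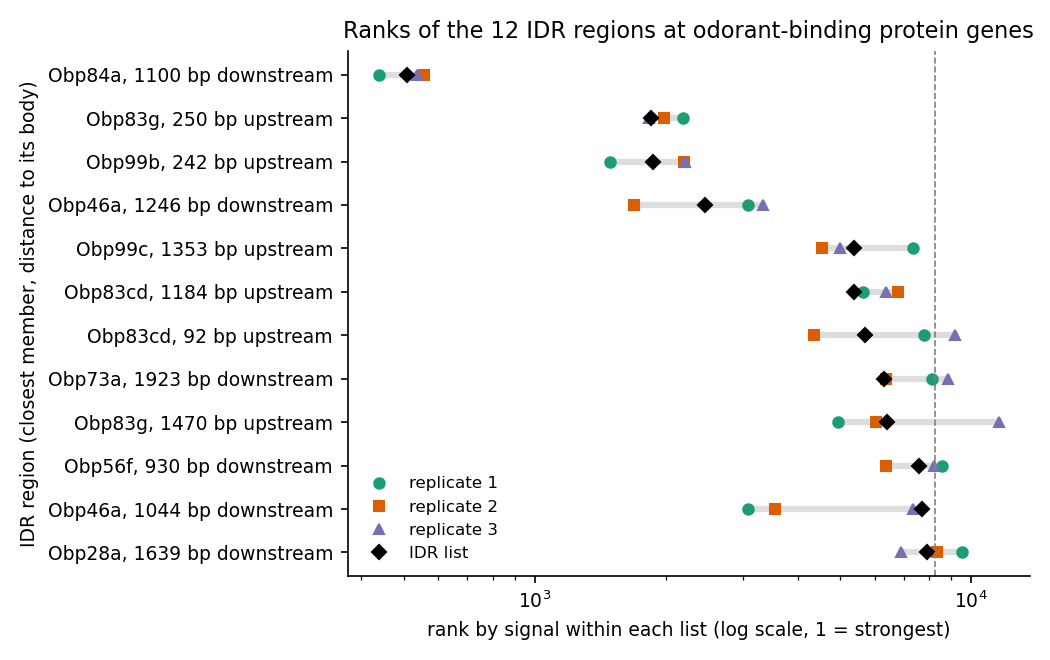
Rank by signal (log scale, 1 strongest) of the 12 IDR regions at odorant-binding protein genes in replicates 1, 2 and 3 and in the IDR list, ordered by IDR rank and labelled with the closest member. The dashed line is rank 8248; the Obp84a, Obp83g and Obp99b regions are far to its left in every list, and the region 1470 bp before Obp83g crosses it in replicate 3.

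The 12 regions were spread over the IDR list. Their median signal was 140.6, against 181.7 over all IDR regions, and their median rank was 5550.5 of 8248. There were 3 of them among the 2062 strongest regions of the list and 8 beyond rank 4124, its midpoint, where an even spread would place 3 and 6. Every one overlapped a region of each full replicate list, which is largely given in advance, since the IDR list holds regions that repeated between replicates. A single region among the strongest of every replicate covered at least 50% of 6 of the 12, whereas 70.6% of all IDR regions met this rule. The Obp84a region missed it in replicate 2 through its extent and not its rank, which was 556 there. Of the 12 regions, 6 were upstream of the closest member and 6 downstream, and the 6 upstream ones were those with a member as the closest start. Counted as pairs of a gene and a region in its window, 6 of 15 pairs at members (40%) had that gene's start as the closest, against 6216 of 10944 pairs over all protein-coding genes (56.8%).

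A smaller share of members than of genes at large had a region. An IDR region was at 11 of 52 members (21.2%, exact binomial 95% interval 11.1% to 34.7%), against 38.5% of all protein-coding genes. Within 1 kb of a start site the count was 3 of 52 (5.77%, 1.21% to 15.9%), against 24.4%. In the gene body it was 0 of 52 (at most 6.85%), against 14.7%. The intervals cover counting error only, and neighbouring members share regions, so that the members are not independent of each other. The pooled list had a region at 23 members (44.2%, 30.5% to 58.7%), against 61.5% of all genes.

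The replicates gave the same order each time. A region among the strongest was at 12 members in replicate 1 (23.1%), 9 in replicate 2 (17.3%) and 10 in replicate 3 (19.2%), against 40.7%, 38.5% and 40.2% of all genes. The mean was 19.9% ± 2.94 of members and 39.8% ± 1.15 of all genes (SD, n = 3), a gap larger than the spread between replicates. In the full lists the members with a region numbered 25, 22 and 22 (44.2% ± 3.33), against 67.6%, 64.8% and 67.6% of all genes (66.6% ± 1.61, SD, n = 3). The replicates share 1 control file, and no test over the members was made.

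Members are short genes, and the gap was smaller among short genes. Their gene bodies had a median of 797.5 bp, against 2166 bp over all genes, and 48 of 52 were at most 2 kb long. Among genes of at most 2 kb, an alternative chosen after seeing the data, 9 of 48 members (18.8%, 8.95% to 32.6%) and 27.0% of all genes of that length had an IDR region. The interval of the members includes the value of short genes at large. Within 1 kb of a start it was 3 of 48 members (6.25%, 1.31% to 17.2%) and 16.0% of all genes of that length, again inside the interval. In the replicates the shares of strongest regions at short genes were 17.4% ± 3.18 of members and 27.8% ± 0.96 of all (SD, n = 3). For gene bodies alone short genes at large stood at 2.59%, so that 0 of 48 members (at most 7.4%) cannot be told apart from that value at this number of genes.

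Counted per length of DNA, members and genes at large were close in the IDR list. The joined windows of all members spanned 195.8 kb and held 12 IDR regions, or 61.3 per Mb (exact Poisson 95% interval 31.7 to 107.0, counting error only). The windows of all protein-coding genes held 67.5 per Mb, those of genes up to 2 kb 70.7 and the arms as a whole 61.6. Among the strongest regions of the replicates the density was 63.0 ± 2.95 per Mb at members and 68.0 ± 0.565 at all protein-coding genes (SD, n = 3). In the full lists, which include background, it was 188.9 ± 8.84 per Mb at members and 235.9 ± 3.52 at all genes, with 214.4 ± 11.2 at genes up to 2 kb (SD, n = 3). The gap to all genes in the full lists was larger than the spread between replicates, which repeats the same windows and leaves out counting error. The exact Poisson 95% interval at members was 141.6 to 272.3 per Mb in replicate 1 and 128.8 to 254.5 in replicates 2 and 3. Each interval includes the value of all genes in that replicate (237.2, 231.9 and 238.5).

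**Figure D3:**
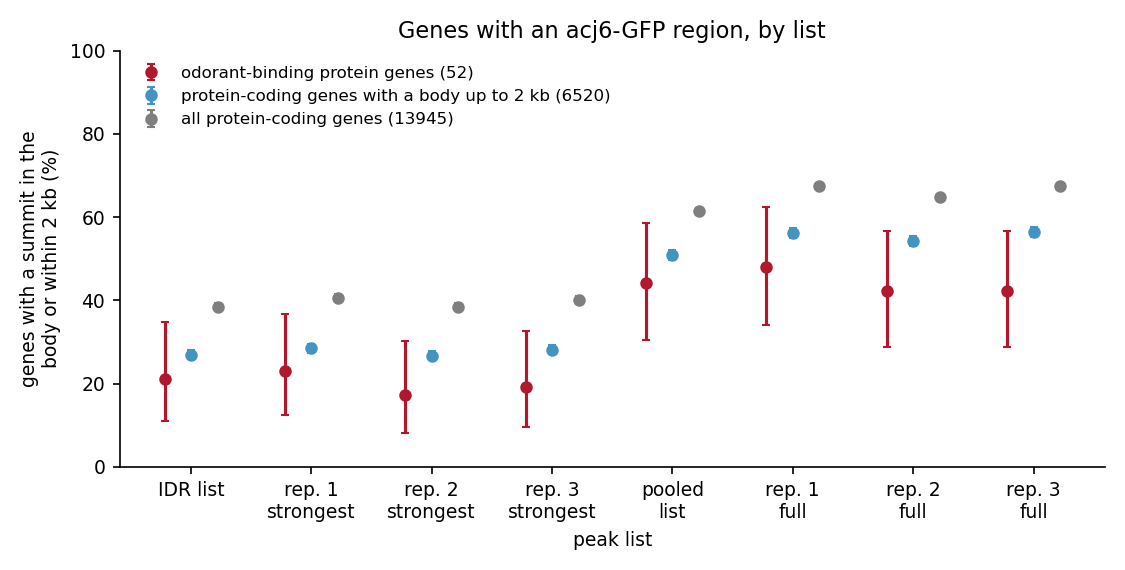
Percentage of genes with a region summit in the gene body or within 2 kb, by peak list, for the 52 odorant-binding protein genes (red), protein-coding genes with a body up to 2 kb (blue) and all protein-coding genes (grey). Error bars are exact binomial 95% intervals; in each list the members are lowest, at 21.2% in the IDR list, and the members' intervals reach the blue points.

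The members fell into 29 genomic clusters, with members at most 20 kb apart placed together. An IDR region was at 8 of these clusters (27.6%, 12.7% to 47.2%). Clusters of other genes were not counted, so this share describes the members alone and is not comparable with shares of single genes. Arm 3R held 6 of the 11 members with an IDR region, among 12 members on that arm, where 39.6% of all genes had one. Arm 2R held 29 members, the largest share of the family, and 3 of them had an IDR region, against 35.4% of all genes of the arm. On X it was 0 of 6 members, against 40.6% of all genes of the arm, and the single one with a pooled region was Obp18a, at rank 16516, 401 bp upstream and in an untranslated exon of RhoGAP18B. The distance from a gene body to the nearest IDR summit had a median of 7027 bp over members and 4258 bp over all genes, with 6395.5 bp over genes up to 2 kb. More than 10 kb lay between them at 16 members (30.8%), up to 25058 bp at Obp85a, against 31.1% of all genes.

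Members with a region included both simple and cysteine-rich proteins. Translation of the annotated coding sequences gave 117 to 259 residues with 5 to 14 cysteines, and the median was 7 cysteines both with and without an IDR region. Of the 15 members with at least 12 cysteines, which include the double-length proteins Obp83cd and Obp83ef, 3 had an IDR region, and of the other 37 members 8 had one.

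Of the 16 members listed for a textbook role, 4 had an IDR region (Obp28a, Obp84a, Obp99b and Obp99c, described above), as did 11 of the 52 members in all. lush, which olfactory hairs need for the response to the pheromone cis-vaccenyl acetate, had no summit in its window in any of the 5 lists. The nearest IDR summit to lush, 6236 bp away, ranked 53 and was closest to the start of Lon, a mitochondrial protease. Obp69a, whose level responds to the same pheromone, Obp83b, a partner of Obp83a in the trichoid hairs of the antenna, and Obp49a, which acts in the suppression of sweet taste by bitter compounds, had none in any list either. Obp83a had a weak pooled region in its own untranslated exon (rank 21470), seen in replicate 2 alone at rank 15767. Obp19d, a member of taste hairs, had none in any list, and Obp44a, made in glia, had a single one in replicate 3 at rank 25359.

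A few of these genes had a region in part of the lists. Obp57e and Obp57d, which affect the taste of fatty acids of a host fruit and the choice of egg-laying sites, shared a pooled region at rank 9630 that was closest to the start of CG30148. It ranked 13544, 12058 and 16892 in replicates 1, 2 and 3, but replicate 1 also had an overlapping region at rank 6402. Obp59a, needed for the sensing of humidity, had a region of rank 6965 in replicate 1 and none in the other lists. Obp93a likewise had one of rank 4883 in replicate 1 alone.

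Obp56i and Obp22a complete the members with the stronger pooled regions and no IDR region. The Obp56i region at rank 10149 lay in an intron, 450 bp before an annotated start, and ranked 11222, 12885 and 11557 in replicates 1, 2 and 3. Its ranks were close to each other and all outside the strongest regions. At Obp22a, a seminal fluid protein gene, the region at rank 18402 was nearest to the start of Npc2a and had counterparts in replicates 1 (rank 14459) and 2 (19584) and none in 3. In all, 12 members had a pooled region without an IDR region, 11 had regions in replicate lists only, and 18 had no region in any of the 5 lists. Among the strongest regions, 8 members were present in 3 replicates, 1 in 2, 5 in 1 and 38 in none. These splits were not counted over all genes, so they describe the members alone. In a single full replicate list, a mean of 41.0% of members up to 2 kb and 55.7% of all genes up to 2 kb had a region. Among the strongest regions of a single replicate the means were 17.4% and 27.8%. These single-list means are not comparable with the counts above, which combine several lists.

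**Figure D4:**
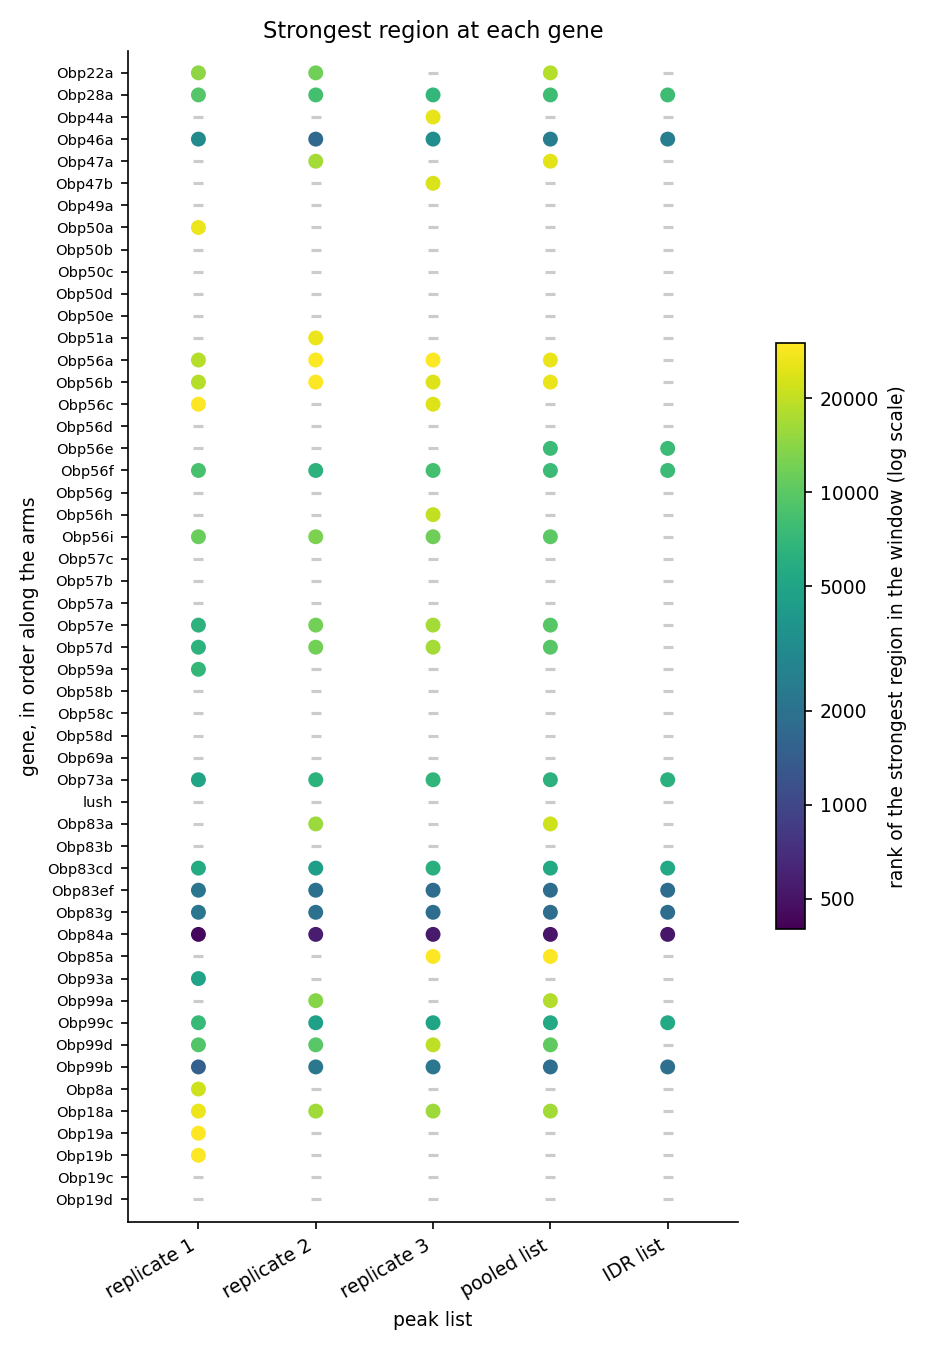
Rank of the strongest region (colour, log scale, darker is stronger) with its summit in the gene body or within 2 kb of each of the 52 odorant-binding protein genes, in the 3 replicates, the pooled list and the IDR list; genes run in order along the arms and a grey dash means no region. Obp84a at rank 508 is darkest, 11 genes have a circle in the IDR column and 18 rows hold dashes alone.

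The DNA at member regions was close to that of the IDR list at large in GC content and in the number of TAAT cores. Within 100 bp of the summit the GC content averaged 32.8% ± 6.77 over the 12 regions and 34.0% ± 6.26 over all 8248 (SD). Both strands were searched, and each occurrence was counted. The core TAAT was found at 10 of the 12 regions (83.3%), against 94.0% of all, with 4.25 ± 2.67 matches a region at members and 3.92 ± 2.56 in the whole list (SD). The regions without it were those at Obp99b and Obp56f. The octamer ATGCAAAT, a site of POU factors in general, was at 0 of 12, against 3.18% of all, and the class IV POU site ATTAATGAG at 0 of 12, against 0.364%. At those frequencies 12 regions are too few to show a difference. The letters GGCGCCATC were taken from the Obp99b sequence itself, so their presence there was given in advance and is no comparison with the list. No other of the 12 regions had them. In the whole list 26 of 8248 regions (0.315%) had them, and 2 had them more than once, Obp99b among these.

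Among the receptors that odorant-binding proteins serve, an IDR region was at 6 of 60 odorant receptor genes (10%, 3.76% to 20.5%) and 15 of 120 gustatory and ionotropic receptor genes (12.5%, 7.17% to 19.8%), intervals that overlap that of the members. The difference between the families was not tested. No IDR summit lay in the gene body of any of these receptor genes either, so this trait is shared with the members. In the pooled list 48.3% of odorant receptor genes and 42.5% of gustatory and ionotropic receptor genes had a region, on either side of the 44.2% of members.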

How the data were processed

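Peak lists of 3 replicates of 1 group were used. Per the deposited text files, the authors made a list of 30000 regions for each replicate and for the pooled alignments, each against 1 shared control file, and an IDR list of 8248 regions. Which aligner, peak caller and IDR cut-off they used is not given in the sources used here. Each region's deposited signal value ranked regions within its list and was compared between no lists. The files hold no read counts, so depth is unknown, and precision is set by the number of genes and regions and by the spread of the replicates. Lists in dm3 coordinates were not used here.

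Summits were set against the genes of Ensembl release 115 and sequence of NCBI RefSeq Release 6, both in dm6 coordinates. Obp50b and Obp50c have the same annotated gene body. Intervals are exact binomial or Poisson at 95%. A region was covered when 1 region of another list overlapped at least 50% of it. Members, lists and motifs were chosen with earlier results of these data known. Named were the members with an IDR region, up to 6 with the strongest pooled regions, members with textbook roles and neighbours whose start lay nearer. Obp22a, Obp85a and Obp93a were chosen after their values were seen. The limit to short genes, densities per Mb and the letters GGCGCCATC were added after seeing the data. Alternatives covered the window, overlap, list length, cluster distance and each replicate left out. The calculations used Python 3.11.15, numpy 2.4.6, pandas 2.3.3, scipy 1.17.1 and matplotlib 3.10.9 and were tested on simulated regions.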

Additional observations from a re-analysis of the deposited data

How the results depend on the processing

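Over all arms together, the share of members with a region was below that of all protein-coding genes in every setting in which both were computed. By arm, the IDR share of members was above that of all genes on 3R (6 of 12 members, against 39.6%). It was also above on 2L (1 of 2 members, against 37.1%), and below on 2R, 3L and X. The share in the IDR list (21.2%) was 0% for gene bodies alone, 7.69% with a flank of 1 kb, 42.3% with 5 kb, 5.77% within 1 kb of a start and 9.62% for the stronger 50% of the list. It was 11.5% for regions covered by a strongest region of every replicate. Without a replicate it was 13.5% to 15.4%, where coverage in both others was required. In these settings the coverage rule and the replicate left out changed together, and they were not separated. The pooled share (44.2%) was 9.62%, 28.8%, 67.3% and 19.2% for gene bodies, 1 kb, 5 kb and starts. The mean share of the strongest replicate regions (19.9%) was 0%, 5.77%, 42.3% and 5.13% in that order, 24.4% with any base in the window, and 11.5% and 28.2% for the 5000 and 15000 strongest, and that of the full lists (44.2%) 9.62%, 29.5%, 73.1%, 21.8% and, with any base, 49.4%. The 12 IDR regions were 4 in the stronger 50%, 4 within 1 kb, 21 within 5 kb and 6 if covered in every replicate, and 7 to 9 under the same coverage rule without a replicate. Clusters with a region (27.6%) were 10.3% with 1 kb, 44.8% with 5 kb, 13.8% both in the stronger 50% and if covered in every replicate, and 17.2% without any 1 replicate under the coverage rule. Regions closer to an outside gene (50%) were 25% with 1 kb, 66.7% with 5 kb, 33.3% if covered in every replicate, and 33.3% to 42.9% without a replicate. The cause was not tested beyond the change of window, list length or replicates itself. No paired analysis was possible because there is 1 group. With 52 members, 12 regions and unknown depth, a region absent from a list was not detectable here and is not shown to be absent.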

Other observations

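Other genes with a known or possible part in chemosensory hairs were counted as a list of 39. They encode secreted proteins as well as receptor and membrane proteins of the neurons. The list was made up of 19 listed symbols, all found, and the 20 CheA and CheB genes of taste hairs. Not every listed gene is established as a gene of such hairs. An IDR region was at 9 of the 39 (23.1%), against 38.5% of all protein-coding genes and 27.0% of those up to 2 kb. Among the strongest regions of replicates 1, 2 and 3, the count was 10, 11 and 8 of the 39. The shares of all genes were 40.7%, 38.5% and 40.2%, and the mean at genes up to 2 kb was 27.8%. Most of the 39 are short genes, and they were not split by length. The strongest IDR region was at Npc2f, of a family of secreted sterol-binding proteins, with a signal of 1062 and rank 164 in the IDR list. It ranked 147, 150 and 176 in replicates 1, 2 and 3. CheB42c followed with a signal of 314.5 (ranks 1814, 2223 and 1950), in a gene body of 27024 bp, then Phk-3, a chemosensory protein of the pherokine kind, with 239.3 (ranks 2604, 2548 and 3313), and Npc2a with 217.1 (ranks 3779, 4649 and 3029). CheA87a, Npc2b, CheB98a, Npc2h and CheB74a had signals from 152.1 down to 103.3. The Npc2a region, of rank 3325 in the IDR list, was closest to the start of Got2. For the others of these 9 genes the closest start is not given, so any of their regions may belong to a neighbour. Orco, the co-receptor of odorant receptors, and Or67d, the receptor for cis-vaccenyl acetate, had no IDR region, and their best replicate regions ranked 8313 and 17133. Snmp1, a membrane protein of the pheromone response, had no region in the IDR, pooled or replicate lists.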
